A study of Mus musculus with 6 samples.

Results

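The genes described here are the Wnt ligands with the proteins that secrete, receive and relay them: Wnt, Frizzled (Fzd), Sfrp, Dkk, Dvl, Axin and Tcf7-type symbols, and 13 further named genes. They were chosen by symbol among the protein-coding rows of a table of FPKM values (fragments scaled to exon length and library size), after Ensembl identifiers had been paired with GENCODE M21 names. The rule found 48 of the table's 24354 genes. It names 10 more symbols of that annotation (Dkk1, Fzd9, Fzd10, Sfrp2, Sfrp5, Wnt2, Wnt3a, Wnt8b, Wnt9b and Wnt10b) that are not analysed here. Total RNA came from TM4 cells, an established mouse line labelled as Sertoli cells, the somatic cells that nurse germ cells in the seminiferous tubule. The cells had been grown in DMEM-F12 medium with fetal bovine serum, and 3 control libraries were compared with 3 libraries of cells given 100 nM aluminium chloride (AlCl3), all taken at day 30. No vehicle or other agent is given for the controls. Nothing in the labels states that replicates were independent cultures. The p-values therefore reflect library-to-library spread alone, possibly technical, and a single line stands for the cell type.

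Wnt proteins are lipid-modified secreted signals that bind Frizzled receptors on nearby cells. With the co-receptor Lrp5 or Lrp6, and through dishevelled proteins, they stop the Axin, Apc, Gsk3 and casein kinase complex from marking beta-catenin for destruction, so that beta-catenin can join TCF/LEF factors at target genes. Other Wnt proteins, Wnt5a among them, act largely through Ror receptors and planar polarity or calcium branches. In the gonad Wnt4 is known for its part in ovary formation.

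Of the 48 genes, 26 had a mean of at least 1 FPKM over the 6 libraries and entered the test, and 22 fell below that level. Differences were tested with limma on log2(FPKM + 1) over 11202 genes, with Benjamini-Hochberg adjustment over all of them and a threshold of 0.05. The Wnt genes that differed were mainly lower with AlCl3: 9 of the 26 fell, 1 rose and 16 did not pass. Over all genes tested, 30.2% fell and 31.2% rose. The share of Wnt genes that fell was thus near that of all genes, and the share that rose was smaller. The median log2 fold change was -0.23 over the 26 genes and 0.03 over all genes tested. The 9 that fell were the ligands Wnt9a and Wnt7b, the acyltransferase Porcn, the receptors Fzd2 and Lrp5, the secreted inhibitor Dkk2, the relay proteins Dvl1 and Dvl3 and the kinase Gsk3b. The 1 that rose was Fzd6. Per-library values below are FPKM in the order control 1, 2, 3 and then AlCl3 1, 2, 3. Means carry the SD over 3 libraries, folds are ratios of mean FPKM, and log2 fold changes are on the FPKM + 1 scale, which understates changes of low genes. For a single gene, an exact permutation test of 3 libraries against 3 cannot give a two-sided p below 0.1. Whether the groups overlap is described below for single genes. Groups that lie apart add little for genes named because they passed the test. The share of all genes with groups apart was not counted.

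**Figure D1:**
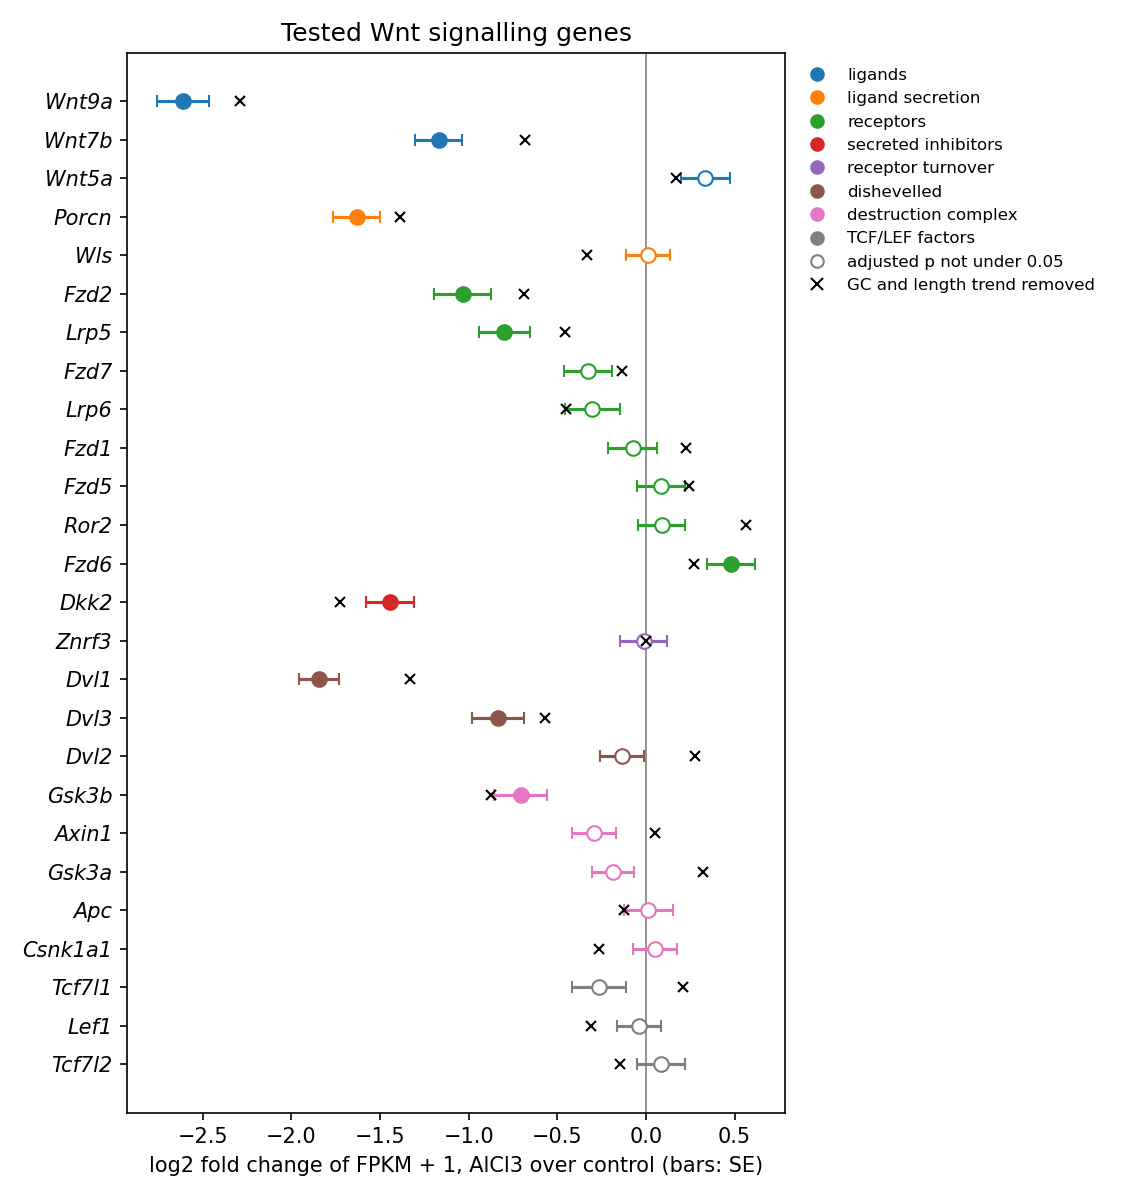
Log2 fold change of FPKM + 1 (AlCl3 over control, horizontal axis, bars are the SE) for the 26 Wnt signalling genes tested, 3 libraries a group. Filled points passed the threshold: 9 lie to the left of 0, from Wnt9a at -2.61 to Gsk3b at -0.71, and 1, Fzd6 at 0.48, lies to the right.

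The libraries held 13381191 to 17339432 reads in genes, recovered from the steps of the FPKM values. For a gene of 1 kb, a single read then equals 0.0568 to 0.0736 FPKM, and read totals below cover counting error only. Libraries of 1 group correlated at 0.978 to 0.993 and libraries of different groups at 0.874 to 0.904. The labels' extraction text speaks of retinas, and of 7 retina markers measured only Rbpms passed the expression filter (control 21.9 ± 2.72, AlCl3 15.1 ± 0.726 FPKM). Of 23 Sertoli markers measured, 11 entered the test, 4 higher and 5 lower, with summed levels of 292 to 419 FPKM in control and 403 to 447 in AlCl3. The Sertoli markers Wt1, Amh, Gata1 and Nr5a1 averaged at most 0.173 FPKM in either group, while Gata4 averaged 11.6 ± 2.03 in control and 6.33 ± 0.435 in AlCl3. None of the 4 Sertoli markers that rose is among these named genes, so the named genes do not stand for the list. Of 8 peritubular myoid and smooth muscle markers, 5 were tested and 3 fell, and their summed level was 697 to 723 FPKM in control and 293 to 332 in AlCl3. Both of the 2 Leydig markers tested of 5 measured fell (sums 15.2 to 17.5 against 10.1 to 12.8), as did 1 of 2 tested of 4 granulosa markers (9.82 to 12.9 against 6.93 to 7.38). Of 6 macrophage and leukocyte markers, Cd14 alone rose (sums 8.18 to 10.1 against 31.0 to 33.4), with Csf1r and Aif1 at no more than 0.101 FPKM in any library. The 4 germ cell and 5 endothelial markers measured summed to at most 0.322 FPKM in any library. These marker counts stand beside 31.2% higher and 30.2% lower over all genes tested. The libraries are bulk RNA of a single cell line, and no cell was typed from these markers. In such libraries fewer cells of a type and less RNA per cell cannot be told apart. The part of these marker lists in the Wnt results was not tested.

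Promoter sequences from RefSeq (GRCm38.p6, windows of 300 bases around each gene's start) were available for 29 of the 48 genes, as 38 promoters. Shown are those of Wnt9a, Wnt6, Dvl1 and Dkk2, genes whose libraries separated by group, and of Wls, whose libraries overlapped. Capitals mark matches, on either strand, to the GC box GGGCGG, the TATA box TATAAA and the E-box CACGTG.
Wnt9a: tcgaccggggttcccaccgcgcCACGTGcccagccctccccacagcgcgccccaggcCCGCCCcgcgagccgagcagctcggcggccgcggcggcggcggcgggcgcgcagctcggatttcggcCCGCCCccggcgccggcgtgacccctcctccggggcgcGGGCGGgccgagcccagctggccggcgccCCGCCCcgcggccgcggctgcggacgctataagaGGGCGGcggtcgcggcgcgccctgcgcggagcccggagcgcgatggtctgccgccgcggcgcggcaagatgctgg
Wnt6: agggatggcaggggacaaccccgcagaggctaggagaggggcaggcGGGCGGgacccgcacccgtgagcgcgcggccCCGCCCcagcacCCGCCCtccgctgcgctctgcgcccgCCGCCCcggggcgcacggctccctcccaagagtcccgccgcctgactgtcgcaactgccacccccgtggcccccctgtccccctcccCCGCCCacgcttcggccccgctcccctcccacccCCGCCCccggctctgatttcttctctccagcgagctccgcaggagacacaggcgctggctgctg
Dvl1: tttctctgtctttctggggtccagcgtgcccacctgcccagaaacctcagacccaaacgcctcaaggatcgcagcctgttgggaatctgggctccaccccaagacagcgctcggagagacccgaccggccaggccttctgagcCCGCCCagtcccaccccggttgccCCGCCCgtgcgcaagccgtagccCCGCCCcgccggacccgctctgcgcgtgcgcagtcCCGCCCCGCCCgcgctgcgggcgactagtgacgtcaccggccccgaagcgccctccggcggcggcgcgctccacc
Dkk2: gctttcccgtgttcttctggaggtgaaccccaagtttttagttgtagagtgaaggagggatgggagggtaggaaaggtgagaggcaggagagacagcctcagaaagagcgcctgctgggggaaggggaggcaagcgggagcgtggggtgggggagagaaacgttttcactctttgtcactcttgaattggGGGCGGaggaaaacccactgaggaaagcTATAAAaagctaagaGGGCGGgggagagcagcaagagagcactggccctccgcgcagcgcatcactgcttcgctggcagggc
Wls: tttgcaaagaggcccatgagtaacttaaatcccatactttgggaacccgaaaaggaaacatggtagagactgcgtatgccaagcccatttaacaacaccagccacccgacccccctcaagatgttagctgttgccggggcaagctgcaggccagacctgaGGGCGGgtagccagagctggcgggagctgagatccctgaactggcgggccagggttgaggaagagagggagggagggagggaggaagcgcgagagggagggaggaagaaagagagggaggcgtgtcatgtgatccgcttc
They lie at chr11:59306680-59306979 (Wnt9a), chr1:74771642-74771941 (Wnt6), chr4:155847152-155847451 (Dvl1), chr3:132085042-132085341 (Dkk2) and chr3:159839400-159839699 (Wls), all on the plus strand. The Wnt9a promoter was 83.3% GC with 58 CpG dinucleotides and 5 GC boxes, and Dvl1, at 72.3% GC, also held 5, of which a pair overlap. Wnt6 held 6 GC boxes, whereas Dkk2, at 57.7% GC, held 2 with a TATA box starting at -32 from the start site. Wls held 1 GC box at 58.0% GC. Across the 38 promoters the GC box was found in 30 (78.9%), against 35.7% of all 32851 promoters of 300 bases. The median GC content was 67.0% against 52.7%. Those 32851 were not filtered for protein-coding or measured genes, and Wnt genes such as Lef1 and Wnt5b count more than once. The sets are therefore unlike. The TCF/LEF core CTTTGA was in 7 of the 38 (18.4%) and in 16.0% of all. The TATA box was in 7 (18.4%, against 13.6%) and the E-box in 3 (7.89%, against 7.15%). None of the 5 promoters shown holds the TCF/LEF core, which says only that these letters are not in the window. Among the genes that fell in the main test, Wnt9a, Dvl1, Dvl3 and Dkk2 held GC boxes and Gsk3b held 0. No promoter was available for Wnt7b, Porcn, Fzd2 and Lrp5, which fell, or for Fzd6, which rose. Genes that did not pass the test held GC boxes too, with 10 in Fzd5, 7 in Fzd7 and 5 in Ror2. A link between GC boxes and the fall was not tested.

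Among the 14 ligands measured, Wnt9a was the most abundant in control cells and had the lowest log2 fold change of the tested Wnt genes. Wnt9a (chromosome 11, 59306928 to 59333552, plus strand) gave 9.64, 11.97 and 13.7 FPKM in control and 0.904, 1.24 and 1.09 with AlCl3. Every control library lay far above every AlCl3 library. Mean level fell from 11.8 ± 2.03 to 1.08 ± 0.167 FPKM, 10.9-fold, and the log2 fold change was -2.61 (SE 0.15, limma adjusted p = 2.5e-06). These levels rest on 1999 reads in control and 171 with AlCl3. Wnt7b (chromosome 15, 85535437 to 85582473, minus strand), a ligand of the beta-catenin branch, read 1.91, 2.66 and 2.43 against 0.464, 0.571 and 0.393 FPKM. Its groups were likewise apart, at means of 2.33 ± 0.386 and 0.476 ± 0.0899, a fall of 4.90-fold (log2 fold change -1.17, SE 0.13, limma adjusted p = 7.1e-05).

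Wnt5a (chromosome 14, 28504750 to 28527448, plus strand), the ligand best known for beta-catenin-independent signalling, was not among the genes that passed. It read 3.16, 3.24 and 3.93 FPKM in control and 4.22, 4.21 and 5.44 with AlCl3. All AlCl3 libraries lay above all control libraries, at 4.62 ± 0.707 against 3.45 ± 0.423 FPKM, with a log2 fold change of 0.34 (SE 0.14, limma adjusted p = 0.057). Its limma adjusted p ran from 0.026 to 0.20 over the processing alternatives, and it passed in 5 of them.

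The other 11 ligands lay below the filter. When genes with a mean of at least 0.1 FPKM were tested as well (15921 genes, of which 24.1% rose and 24.9% fell), Wnt6 and Wnt4 fell. Wnt6 read 0.852, 0.918 and 0.918 FPKM in control and 0.0259, 0.168 and 0.159 with AlCl3, from 31, 34 and 35 reads against 1, 5 and 6. All controls were thus several times the highest AlCl3 library. The mean was 7.61-fold lower with AlCl3, and the log2 fold change was -0.76 (SE 0.09, limma adjusted p = 3.8e-04). Wnt4 read 0.804, 1.07 and 1.04 against 0.433, 0.334 and 0.333 FPKM, 2.65-fold lower on 208 and 75 reads, again with no overlap (log2 fold change -0.53, SE 0.10, limma adjusted p = 0.0032). Wnt10a lies next to Wnt6 on chromosome 1 (74791516 to 74804179, against 74771892 to 74785322, both plus strand). Unlike Wnt6, Wnt10a had like read totals in the groups, 19 in control and 17 with AlCl3, spread unevenly over the libraries. Wnt3 had 3, 3 and 5 reads in control and 0 in each AlCl3 library, at least 3.47-fold lower against a floor of 3 reads over the group, and it passed only without a filter (limma adjusted p = 0.018). The remaining ligands gave few reads over 3 libraries, namely Wnt2b (16 in control, 3 with AlCl3), Wnt11 (7 and 2), Wnt1 (3 and 4), Wnt16 (0 and 4), Wnt5b (1 and 3), Wnt7a (2 and 0) and Wnt8a (2 and 1). For these low ligands no fold is given, because their totals lie near the floor.

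**Figure D2:**
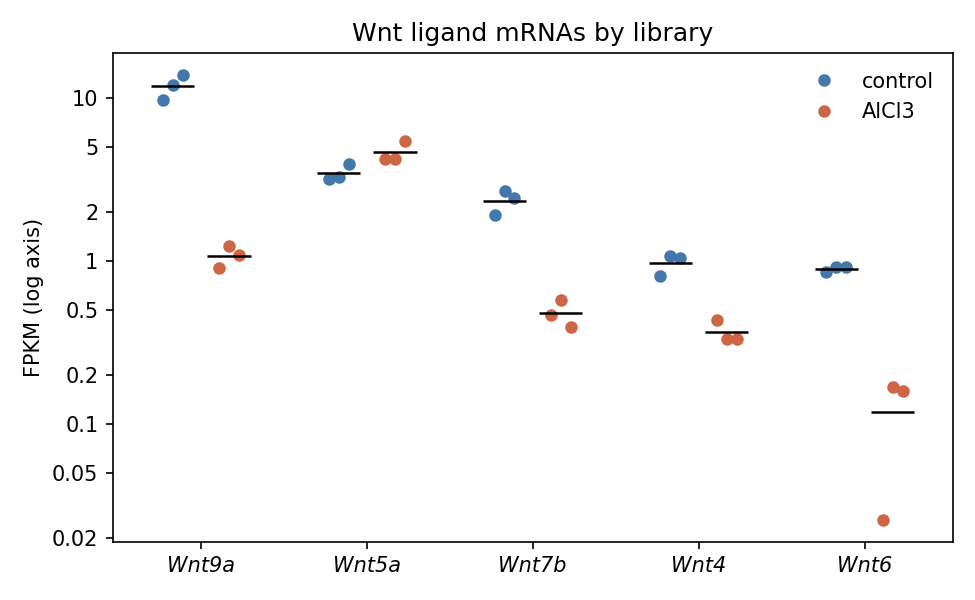
FPKM (log axis) of Wnt ligands in each library, one point per library, 3 control and 3 AlCl3, with bars at the group means. Wnt9a runs from 9.64 to 13.7 in control and from 0.904 to 1.24 with AlCl3, while Wnt5a is the ligand whose AlCl3 points, 4.21 to 5.44, lie above its control points.

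FPKM is scaled per kilobase but not for GC content, so levels set against each other within a family are approximate. On that scale the leading ligand changed place. Summed over 14 ligands, FPKM was 16.8, 20.2 and 22.5 in control and 6.35, 6.90 and 7.52 with AlCl3. Wnt9a made up 57.5, 59.3 and 61.0% of that sum in control and 14.2, 17.9 and 14.4% with AlCl3. Wnt5a made up 18.9, 16.0 and 17.5% in control and 66.5, 61.0 and 72.3% with AlCl3. In every control library Wnt9a was thus the leading ligand, and in every AlCl3 library Wnt5a was. Wnt7b held 11.8 ± 1.23% in control and 6.94 ± 1.56% with AlCl3, and Wnt4 4.91 ± 0.352% and 5.37 ± 1.28%. A share depends on the fall of the others: the Wnt5a level itself was 1.34-fold higher and did not pass.

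**Figure D3:**
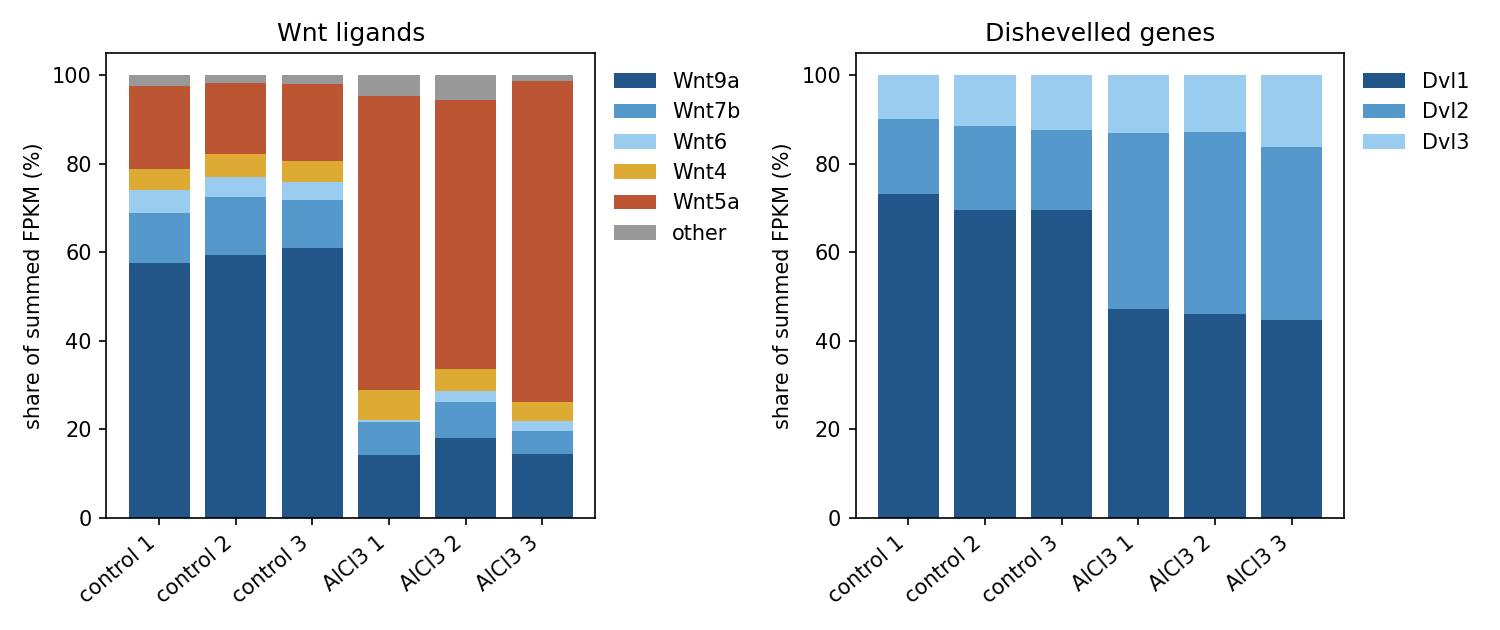
Share of summed FPKM (%) held by each ligand (left, low ligands as other) and dishevelled gene (right) in each of the 6 libraries, stacked to the family total. Among ligands Wnt9a averages 59.2% in control and 15.5% with AlCl3 and Wnt5a 17.5% and 66.6%, and among dishevelled genes Dvl1 goes from 70.7% to 45.9%.

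The 2 genes of ligand release differed from each other. Porcn (X chromosome, 8193848 to 8206525, minus strand) encodes the acyltransferase that attaches the lipid without which Wnt proteins are not secreted. It read 6.95, 7.13 and 8.93 FPKM in control and 1.78, 1.99 and 1.59 with AlCl3. The groups were apart by more than 3-fold at their nearest libraries. Its mean fell from 7.67 ± 1.10 to 1.79 ± 0.198 FPKM, 4.29-fold (log2 fold change -1.63, SE 0.13, limma adjusted p = 1.1e-05). Wls, the carrier that takes lipid-modified Wnt proteins to the cell surface, read 18.5, 19.0 and 20.4 against 20.4, 16.8 and 21.5 FPKM, and its groups overlapped (log2 fold change 0.01, SE 0.12, limma adjusted p = 0.95).

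Of 12 receptors and co-receptors, 8 were tested, and Fzd2 and Lrp5 fell while Fzd6 rose. Fzd2 (chromosome 11, 102604396 to 102608058, plus strand) was the most abundant Frizzled in control cells. It read 19.96, 23.5 and 29.8 FPKM in control and 10.9, 12.96 and 10.1 with AlCl3. No AlCl3 library reached the lowest control, and the mean went from 24.4 ± 5.01 to 11.3 ± 1.48 FPKM, 2.16-fold lower (log2 fold change -1.03, SE 0.16, limma adjusted p = 4.5e-04). Lrp5 (chromosome 19, 3584828 to 3686564, minus strand), a co-receptor of the beta-catenin branch, read 7.94, 10.8 and 10.5 against 4.51, 5.62 and 5.33 FPKM. It too separated by group, 1.89-fold lower with AlCl3 (log2 fold change -0.80, SE 0.14, limma adjusted p = 0.0011). Its relative Lrp6 read 5.56, 6.53 and 7.47 against 5.49, 4.02 and 5.83 FPKM, with overlapping groups (log2 fold change -0.30, SE 0.16, limma adjusted p = 0.12). With GC and length trends removed, Lrp5 and Lrp6 were alike in size, at log2 fold changes of -0.46 (limma adjusted p = 0.0018) and -0.45 (0.0011), and Lrp6 then passed.

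Fzd6 (chromosome 15, 39006034 to 39038188, plus strand), a Frizzled known from planar polarity, read 1.5, 1.78 and 1.74 FPKM in control and 2.23, 2.81 and 3.22 with AlCl3. Every AlCl3 library was higher, 1.64-fold in the mean (log2 fold change 0.48, SE 0.14, limma adjusted p = 0.013). The call was lost without AlCl3 replicate 3, at a log2 fold change of 0.39 and a limma adjusted p of 0.0501. It was also lost with the GC and length trend removed, at 0.27 and 0.058.

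The other Frizzleds above the filter did not pass. Fzd7 read 12.98, 16.1 and 16.8 against 10.5, 12.995 and 12.5 FPKM, groups that just overlap, with a log2 fold change of -0.33 (SE 0.14, limma adjusted p = 0.064). Fzd1 read 4.12, 4.09 and 5.29 against 4.41, 3.61 and 4.61 FPKM, and Fzd5 read 2.36, 2.89 and 2.79 against 2.40, 2.99 and 3.34. For both, the groups overlapped and the log2 fold changes were -0.08 and 0.08 (limma adjusted p = 0.65 and 0.61). Ror2, a receptor for Wnt5a with a tyrosine kinase-like domain, read 8.33, 11.04 and 10.9 against 10.2, 10.9 and 10.96 FPKM, with overlapping groups (log2 fold change 0.09, SE 0.13, limma adjusted p = 0.58). With GC and length trends removed the Ror2 value was 0.57 and passed (limma adjusted p = 2.9e-04).

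Below the filter, 3 Frizzleds passed when genes of at least 0.1 FPKM were included. Fzd3, a planar polarity Frizzled, was 3.08-fold higher with AlCl3, at 0.249, 0.180 and 0.211 against 0.723, 0.546 and 0.705 FPKM (limma adjusted p = 0.0043). Fzd8 was 3.10-fold lower, at 1.26, 0.912 and 1.52 against 0.418, 0.382 and 0.390 FPKM (limma adjusted p = 0.0026). Fzd4, the receptor for norrin as well as Wnt proteins, was 6.28-fold lower, at 0.457, 0.397 and 0.402 against 0.0845, 0.0548 and 0.0607 FPKM, on 143 and 22 reads (limma adjusted p = 0.0034). Their groups did not overlap, which adds little for genes named because they passed the test. Ror1 gave 3 reads in control and 2 with AlCl3. The summed Frizzled level was 50.4 ± 7.87 FPKM in control and 34.3 ± 2.45 with AlCl3. Fzd2 held 48.2 ± 2.39% of that sum in control and 33.0 ± 3.55% with AlCl3, and Fzd7 held 30.4 ± 1.83% and 34.9 ± 1.53%.

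Dkk2 (chromosome 3, 132085292 to 132180304, plus strand) was the secreted inhibitor that passed the filter, of 5 measured. Dkk proteins such as Dkk2 can bind the Lrp5 and Lrp6 co-receptors and block them. Dkk2 read 27.9, 31.1 and 34.9 FPKM in control and 9.70, 10.3 and 12.6 with AlCl3. The lowest control was more than 2-fold above the highest AlCl3 library. Its mean fell from 31.3 ± 3.48 to 10.9 ± 1.52 FPKM, 2.88-fold (log2 fold change -1.44, SE 0.14, limma adjusted p = 2.4e-05). Thus a gene grouped here with the inhibitors fell alongside ligands and receptors. Dkk3 gave 0, 1 and 5 reads in control and 8, 5 and 15 with AlCl3. In FPKM its groups did not overlap, with controls up to 0.0856 and AlCl3 libraries from 0.110. It did not pass at the lower filter (limma adjusted p = 0.14). Dkk4 (1 read in control, 2 with AlCl3), Sfrp1 (1 and 0) and Sfrp4 (3 and 4) were at the limit of detection.

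Znrf3 and Rnf43 are membrane ubiquitin ligases that remove Frizzleds from the cell surface. Znrf3 read 2.13, 2.63 and 2.34 FPKM in control and 2.12, 2.11 and 2.81 with AlCl3, with overlapping groups (log2 fold change -0.01, SE 0.13, limma adjusted p = 0.94). Rnf43 lay below both filters, with 6, 13 and 8 reads in control and 2, 3 and 0 with AlCl3.

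The dishevelled proteins carry the signal from the receptor to the destruction complex, and Dvl1 and Dvl3 fell. Dvl1 (chromosome 4, 155847402 to 155859303, plus strand) read 50.2, 49.2 and 54.1 FPKM in control and 12.9, 14.8 and 12.9 with AlCl3, the highest level of any Wnt signalling gene in control. The groups were far apart, and the mean fell from 51.2 ± 2.57 to 13.5 ± 1.09 FPKM, 3.78-fold (log2 fold change -1.85, SE 0.11, limma adjusted p = 3.5e-06). The gene overlaps Tas1r3, which had 29 reads in control and 9 with AlCl3. Dvl3 (chromosome 16, 20516982 to 20534010, plus strand) read 6.84, 8.16 and 9.59 against 3.57, 4.15 and 4.69 FPKM, 1.98-fold lower and without overlap (log2 fold change -0.84, SE 0.15, limma adjusted p = 9.4e-04). Dvl2 read 11.6, 13.5 and 14.1 against 10.98, 13.2 and 11.2 FPKM, with overlapping groups (log2 fold change -0.14, SE 0.12, limma adjusted p = 0.37). Dvl2 is uncertain, since it overlaps Acadvl (3731 reads in control, 2866 with AlCl3) and no source used here gives the strand setting of the counting. The summed dishevelled level was 72.5 ± 4.72 FPKM in control and 29.5 ± 2.39 with AlCl3. Dvl1 held 70.7 ± 2.06% and 45.9 ± 1.19% of it, and Dvl2 18.02 ± 1.04% and 40.01 ± 1.00%.

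In the destruction complex, 5 of 6 genes were tested and Gsk3b fell. Gsk3b (chromosome 16, 38089001 to 38246084, plus strand), a kinase that phosphorylates beta-catenin, read 9.62, 11.6 and 11.2 FPKM in control and 6.44, 4.96 and 7.44 with AlCl3. Its groups did not overlap, and the mean went from 10.8 ± 1.05 to 6.28 ± 1.25 FPKM, 1.72-fold lower (log2 fold change -0.71, SE 0.15, limma adjusted p = 0.0028). The related kinase Gsk3a averaged 18.4 ± 1.69 and 16.0 ± 1.21 FPKM and did not pass (log2 fold change -0.19, SE 0.12, limma adjusted p = 0.20). The scaffold Axin1, the most abundant of the complex in control, read 28.4, 35.1 and 35.5 against 25.8, 26.6 and 27.3 FPKM. Its controls all lay above its AlCl3 libraries, and it did not pass (log2 fold change -0.29, SE 0.12, limma adjusted p = 0.062). With GC and length trends removed, the Axin1 value was 0.050 (limma adjusted p = 0.52). The casein kinase Csnk1a1, which primes beta-catenin for Gsk3, averaged 29.1 ± 2.21 and 30.3 ± 3.50 FPKM, and the scaffold Apc 2.31 ± 0.148 and 2.36 ± 0.466, with log2 fold changes of 0.05 and 0.01. Axin2, a scaffold that is itself a common target of beta-catenin and TCF factors, lay below the filter. It read 0.295, 0.387 and 0.313 against 0.299, 0.174 and 0.286 FPKM, on 93 and 69 reads, with overlapping groups (log2 fold change -0.09 at the lower filter, limma adjusted p = 0.43).

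None of the 3 TCF/LEF factors tested passed. Tcf7l1, often a repressor of Wnt targets, was the most abundant at 3.07, 4.48 and 4.34 FPKM in control and 2.61, 3.23 and 3.50 with AlCl3, with overlapping groups (log2 fold change -0.26, SE 0.15, limma adjusted p = 0.16). Tcf7l2 averaged 1.70 ± 0.233 and 1.87 ± 0.329 FPKM, and Lef1 1.64 ± 0.163 and 1.58 ± 0.232, with log2 fold changes of 0.09 and -0.04. Tcf7, just under the filter, read 0.978, 1.37 and 1.24 against 0.752, 0.780 and 0.791 FPKM, 1.54-fold lower without overlap. It passed at the lower filter (log2 fold change -0.30, SE 0.11, limma adjusted p = 0.046) but not without a filter (limma adjusted p = 0.083). At the lower filter 35 of the Wnt genes were tested. Of these, 2 rose (Fzd6 and Fzd3) and 14 fell, the additional 5 being Wnt4, Wnt6, Fzd4, Fzd8 and Tcf7. Over all 15921 genes tested there, 24.1% rose and 24.9% fell.

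**Figure D4:**
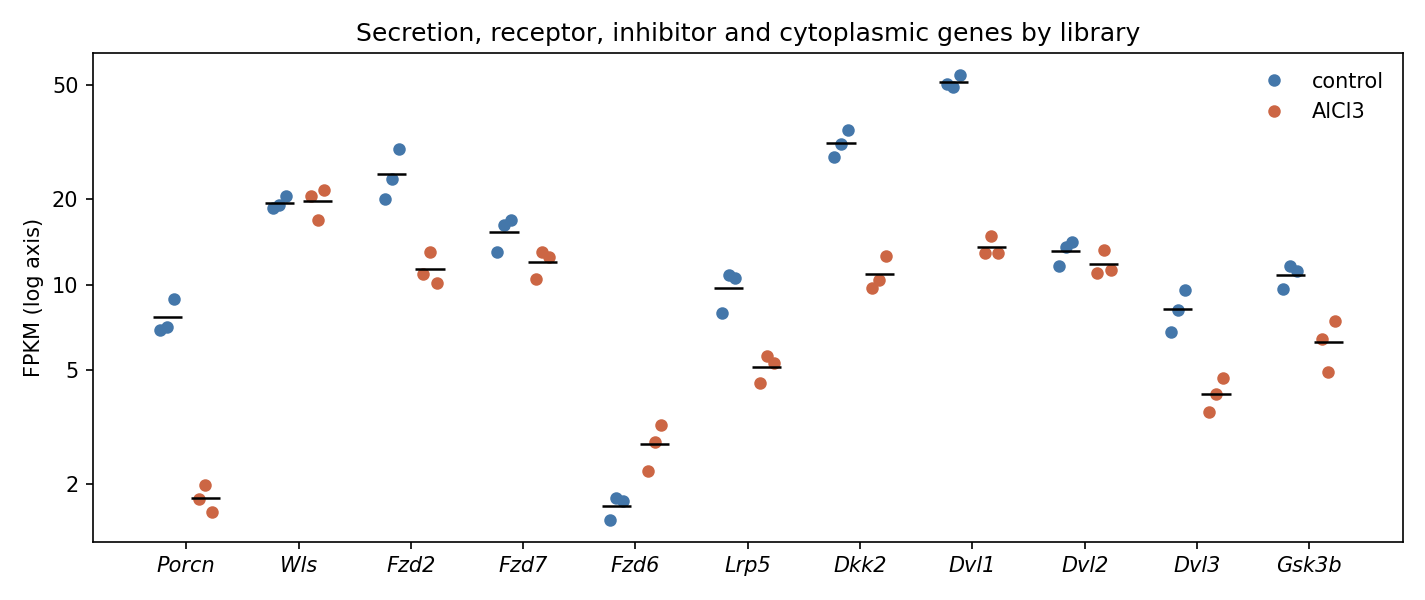
FPKM (log axis) of secretion, receptor, inhibitor and relay genes in each library, one point per library, 3 control and 3 AlCl3, with bars at the group means. Dvl1 (49.2 to 54.1 in control, 12.9 to 14.8 with AlCl3), Dkk2 (27.9 to 34.9 against 9.70 to 12.6) and Porcn (6.95 to 8.93 against 1.59 to 1.99) separate by group, and Wls overlaps.

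Fold changes in these libraries moved with the GC content of the transcripts, so it is given beside the Wnt genes. With the tested genes split into 10 groups of near-equal size by GC content, the median log2 fold change went from 0.33 in the group lowest in GC to -0.53 in the highest, and the share of genes that fell went from 12.6% to 58.2%. Wnt7b (59.4% GC) and Dvl1 (59.3%) lay in the highest group, with Fzd2 (56.6%) and Wnt9a (56.4%) in the one below. With GC and length trends removed, the log2 fold change was -2.29 for Wnt9a, -1.39 for Porcn, -1.33 for Dvl1, -0.69 for Fzd2 and -0.68 for Wnt7b. It was -0.57 for Dvl3 and -0.46 for Lrp5. All 7 were closer to 0 than before, and all still passed (largest limma adjusted p 0.0018, for Lrp5). Dkk2 (45.7% GC) and Gsk3b (46.1%), of lower GC content, had log2 fold changes of -1.73 and -0.87, farther from 0. After this removal 13 of the 26 Wnt genes fell and 3 rose, against 33.8% that fell and 33.8% that rose of the 11183 genes in that fit. Ror2 (58.9% GC) reached 0.57 (limma adjusted p = 2.9e-04), Gsk3a (59.8%) 0.32 (0.0030) and Dvl2 (57.2%) 0.28 (0.018). Wls reached -0.33 (limma adjusted p = 0.0034), Lrp6 -0.45 (0.0011), Lef1 -0.31 (0.021) and Csnk1a1 -0.27 (0.016). For Gsk3a, Dvl2, Wls and Csnk1a1 this is the opposite sign to the values above. Beyond this removal, the part of GC content in the Wnt results was not tested.

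**Figure D5:**
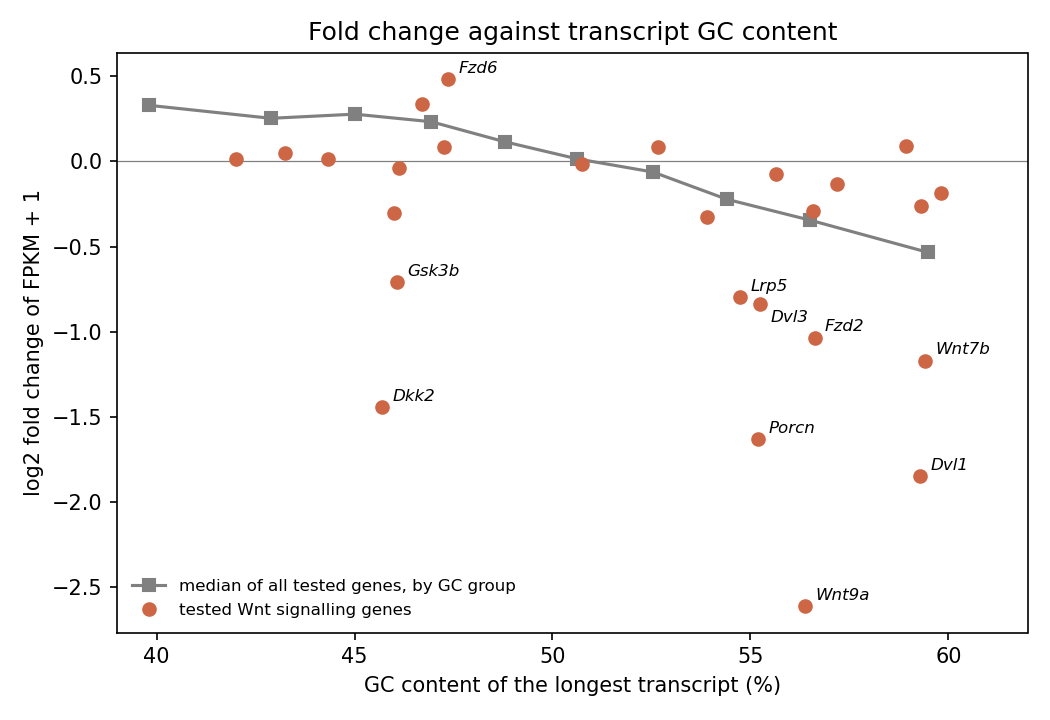
Log2 fold change of FPKM + 1 (vertical axis) against GC content of the longest transcript (%), with the 26 Wnt signalling genes tested as points and the median of all tested genes in each of 10 groups by GC content as a line. The line runs from 0.33 to -0.53, and Wnt9a at -2.61, Dvl1 at -1.85 and Dkk2 at -1.44 lie below it.

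Beta-catenin and its partners, which the rule does not name, were read from further lists. Of 33 measured genes of beta-catenin, E3 ligase and nuclear cofactor function, 32 were tested: 10 rose, 8 fell and 14 did not pass, with a median log2 fold change of 0.08. These counts lie near the shares over all genes tested (31.2% higher, 30.2% lower). Ctnnb1, beta-catenin itself, averaged 26.8 ± 0.872 FPKM in control and 79.4 ± 6.98 with AlCl3 (log2 fold change 1.53, SE 0.12, limma adjusted p = 7.8e-06). The deacetylase Hdac1 rose from 9.68 ± 1.16 to 30.3 ± 1.23 FPKM and the ubiquitin ligase scaffold Cul1 from 11.9 ± 1.84 to 36.7 ± 7.21. Aes, a short Groucho-type corepressor, fell from 112 ± 7.57 to 48.6 ± 3.53 FPKM. Ctnnb1 mRNA was thus higher in the libraries where Dvl1, Dvl3 and Gsk3b were lower, and protein was not measured.

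Of 24 other extracellular and membrane modulators measured, 11 were tested, 3 rose and 5 fell (median log2 fold change -0.25), against 31.2% higher and 30.2% lower over all genes tested. Igfbp4, a secreted binding protein that can also inhibit Wnt signalling, fell from 86.0 ± 4.82 to 27.9 ± 1.63 FPKM (log2 fold change -1.59). Kremen1, the receptor that works with Dkk proteins, fell from 11.96 ± 2.00 to 3.47 ± 0.150 FPKM (-1.52), beside the fall of Dkk2. Gpc4, a cell-surface heparan sulfate proteoglycan, fell from 64.7 ± 7.44 to 31.6 ± 2.95 FPKM (-1.01). Tspan12, a tetraspanin of the norrin receptor with Fzd4, rose from 0.726 ± 0.259 to 3.93 ± 0.436 FPKM (1.52), whereas Fzd4 was lower.

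Of 41 planar polarity and calcium branch genes measured, 28 were tested, 5 rose and 13 fell (median log2 fold change -0.18), beside 31.2% and 30.2% of all genes tested. The 4 with the smallest p fell: the kinase Mapk9 (JNK2) from 10.4 ± 1.18 to 4.08 ± 0.425 FPKM, and the formin Daam1, a partner of dishevelled, from 2.91 ± 0.315 to 1.23 ± 0.210. The polarity genes Prickle2 (3.74 ± 0.545 to 1.27 ± 0.318) and Prickle3 (2.88 ± 0.299 to 0.886 ± 0.167) were lower too. The 5 that rose, named after their values were seen, were Mapk8, Map3k7, Nlk, Prkca and Cdc42. Mapk8 (JNK1), the relative of Mapk9, averaged 2.41 ± 0.391 FPKM in control and 4.44 ± 0.417 with AlCl3 (limma adjusted p = 0.0017).

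Of 29 textbook beta-catenin/TCF target genes measured, 18 were tested, 4 rose, 8 fell and 6 did not pass (median log2 fold change -0.36), and 5 of the 29 are Wnt genes already described. Over all genes tested 31.2% rose and 30.2% fell. The cell cycle gene Ccnd1 rose from 31.4 ± 3.21 to 85.0 ± 3.89 FPKM (log2 fold change 1.41), the survivin gene Birc5 from 17.9 ± 0.830 to 59.4 ± 5.81 (1.68) and the AP-1 gene Fosl1 from 2.24 ± 0.482 to 11.1 ± 2.78 (1.89). The endothelin gene Edn1 fell from 5.81 ± 1.07 to 0.265 ± 0.0392 FPKM (-2.42). The limma adjusted p was at most 5.4e-04 for each of the genes named by smallest p from these 4 lists. These genes have many other regulators, and the targets did not move in 1 direction.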

How the data were processed

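RNA-seq of 3 control and 3 AlCl3 libraries was read from a deposited table of FPKM per gene, which the authors computed. Per the submitters' processing notes, HISAT2 2.1.0 and the build GRCm38 were used. For the counting tool, its strand setting and annotation, no source used here gives a name. Identifiers were paired with GENCODE M21 symbols (54 of 24354 rows had none). FPKM times exon length gave whole reads, within 0.01 reads, for 98.9 to 99.0% of the genes examined per library; these reads give the depths quoted. limma 3.58.1 in R 4.3.3 was run on log2(FPKM + 1), two-sided, with a variance trend and Benjamini-Hochberg adjustment, for genes with a mean of at least 1 FPKM. The script was tested on simulated data first. FPKM is relative to each library's total, so a fall is relative to the other genes. Alternatives were a pseudocount of 0.1, minimum means of 0.1 and 5 FPKM or none, median-ratio scaling, TPM, voom on the recovered reads, removal of GC and length trends (splines of 4 degrees of freedom), a replicate block, and leaving out each library.

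Every Wnt gene is named by role. Per-library values are given for genes past the threshold, for the most abundant gene of a role and for ligands and receptors above the filter. Of the further lists, the 4 genes with the smallest p are named, and Ctnnb1. The genes, lists and tests were chosen with earlier results of these data known. At most 3.85% of any Wnt gene's longest transcript (Wnt4) was found in another gene.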

Additional observations from a re-analysis of the deposited data

How the results depend on the processing

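The 9 genes that fell kept their direction and their call in every alternative run that tested them. Of 378 values of single Wnt genes under alternatives, 330 kept direction and call, 2 lost a call (Fzd6, given above), 16 gained one without a change of sign, and 30 changed sign, all 30 in genes that had not passed. Of these 30, 4 passed with the new sign (Gsk3a, Dvl2, Wls and Csnk1a1, with GC and length trends removed). The count of genes that rose, 1 in the main analysis, was 2 without a filter, at a minimum mean of 0.1 FPKM, with median-ratio scaling, TPM, voom or the replicate block, 3 with GC and length trends removed, 0 at a minimum of 5 FPKM, and 0 to 2 with 1 library left out. The count that fell, 9 of 26, was 14 of 48 without a filter and 14 of 35 at 0.1 FPKM. At 5 FPKM 7 of 15 fell, and with TPM 12 of 31. Under the others 9 to 13 fell, of 25 or 26 tested, and 9 to 12 with 1 library left out, of 26 or 27. Over all genes 3600 rose and 3865 fell of 24354 without a filter, and 3840 and 3968 of 15921 at 0.1 FPKM. At 5 FPKM it was 2416 and 2260 of 7168, and with TPM 3997 and 2974 of 12892. The rest gave 2891 to 3785 higher and 2872 to 3775 lower, of 11035 to 11230. Calls over all genes numbered 6869 of 11202 tested, and ran from 4676 of 7168 to 7808 of 15921 under the alternatives. The replicate block gave 2 higher and 11 lower Wnt genes and 7375 calls over all genes. Deviations from the group means correlated at 0.20, 0.097 and 0.39 between same-numbered libraries. Between differently numbered libraries these correlations ran from -0.36 to 0.17. The main analysis did not take the numbers as pairs, and these values do not settle whether they mark pairs. TPM moved the median of all genes from 0.03 to 0.13. With GC and length trends removed the sign turned for Apc (-0.13), Axin1 (0.050), Csnk1a1 (-0.27), Dvl2 (0.28), Fzd1 (0.22), Gsk3a (0.32), Tcf7l1 (0.21), Tcf7l2 (-0.15), Wls (-0.33) and Znrf3 (0.00048). With TPM it turned for Fzd1 (0.027), Lef1 (0.049) and Znrf3 (0.088), and with median-ratio scaling for Wls (-0.0050). With 1 library left out, log2 fold changes spanned 0 for Apc (-0.064 to 0.13), Csnk1a1 (-0.034 to 0.12), Fzd1 (-0.13 to 0.025), Lef1 (-0.11 to 0.010), Ror2 (-0.031 to 0.15), Wls (-0.058 to 0.11) and Znrf3 (-0.11 to 0.042). Among calls gained with no change of sign, Wnt5a passed in 5 alternatives and Fzd7 in 4. The size of the fall rests on the scale: Wnt7b was -1.17 with a pseudocount of 1 and -2.30 by voom. Causes were not tested beyond these alternatives. Depth limits the Wnt genes below a mean of 0.1 FPKM, of which Wnt3 alone passed without a filter (limma adjusted p = 0.018), where Tcf7 did not (0.083).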
